A study of Felis catus with 12 samples.

Results

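APOA1, APOE, SERPINA1, ITIH4 and CLU encode proteins that are best known from blood plasma, and their RNA was measured in the left ventricle of the cat. The 5 genes, out of 30785 listed in the deposited table, were taken by name. APOA1, SERPINA1 and ITIH4 were chosen by the size of their difference between congestive heart failure (HF) and arterial thromboembolism (ATE) in these same libraries, so for these 3 genes that difference is a description and carries no test. APOE and CLU were not selected on that difference. All 5 genes passed the filter on low counts, which kept 8715 genes: a gene needed 10 or more reads in 3 or more of the libraries whose outcome was assigned.

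Left ventricular tissue was collected post-mortem from client-owned cats, whose carcasses could be kept refrigerated before sampling, and its RNA was sequenced directly, as RNA molecules, on Oxford Nanopore flow cells. Each of 12 cats gave 1 library, and 4 libraries were run on each of 3 flow cells. The cats' outcomes were congestive HF (6 cats, numbered 11, 15, 30, 31, 35 and 37), ATE (3 cats, 10, 23 and 38) and no known cardiac death (1 cat, 36), and 2 libraries, labelled cats 22 and 29, were assigned to no outcome, because these cats are not among those the study names as sequenced. It names in their place 2 cats without known cardiac death whose numbers no label carries. For a cat numbered 22 the study's cohort list gives ATE, and for a cat numbered 29 no known cardiac death. Flow cell A carried cats 11, 23, 30 and 31, flow cell B cats 10, 15, 35 and 36, and flow cell C cats 22, 29, 37 and 38. These are outcomes of naturally ill animals: no treatment was assigned, a single cat stands for death without a known cardiac cause, and bulk tissue holds every cell type of the ventricle. Age, strain, sex and medication of the cats are not in the labels, but the cohort list gives age, breed and sex for most of them. By that list the 3 ATE cats are domestic short hairs. HF cats 11, 15 and 35 are Birman or Maine Coon, and the other HF cats are domestic short hairs. An influence of breed was not tested. The sample is the cat, there was no repeat library of any cat, and in such bulk tissue fewer cells of a type and less RNA per cell cannot be told apart.

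In plasma, APOA1 is the main protein of high density lipoprotein, which takes up cholesterol from cells. APOE carries lipids to receptors on cells and is made by macrophages as well as by the liver, and CLU (clusterin, also named apolipoprotein J) is a secreted chaperone that binds unfolded proteins. SERPINA1 (alpha-1 antitrypsin) blocks neutrophil elastase, and ITIH4 is a heavy chain of the inter-alpha-trypsin inhibitor family. SERPINA1 and ITIH4 are acute-phase proteins, which the liver secretes in larger amounts during inflammation under the control of interleukin 6.

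The libraries held between 789257 (cat 23) and 2263110 (cat 11) reads on genes, with 852825 to 2263110 in congestive HF and 789257 to 1631706 in ATE. Levels are deposited values, meaning reads of the gene divided by a size factor of the library, so they compare 1 gene between cats and not different genes with each other. One read was worth between 0.483 (cat 11) and 1.43 (cat 37). Cardiomyocyte markers were present in every library, with summed values of 10 markers from 117590 to 193004 in congestive HF and from 134791 to 215487 in ATE. Hepatocyte markers were at or near 0. FGA, SERPINC1 and HPX had no read in any of the 12 libraries and none of the 11 hepatocyte markers in the table reached the filter, with summed values of 2.53 to 61.3 in congestive HF and 17.6 to 25.5 in ATE. ALB was at 0 in 9 libraries, and most of its reads came from cat 15 (40 reads), with 9 in cat 23 and 12 in cat 36.

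APOA1 was high in all 3 ATE cats and in 1 of the 6 cats with congestive HF. Its value was 292 in cat 10 (259 reads), 422 in cat 23 (314 reads) and 252 in cat 38 (342 reads). Among cats with congestive HF the lowest value was 18.8 (cat 11, 39 reads), the median 49.5 and the highest 411 (cat 37, 287 reads). The other 5 HF cats lay between 18.8 and 52.0, so the groups overlapped only through cat 37. The cat without known cardiac death had 25.8 (29 reads), near the bottom of the order. Of the unassigned libraries, cat 22 held the highest value of all, 482 (357 reads), and cat 29 had 82.0 (74 reads). No library lay between 82.0 and 252. Over all 12 libraries the SD was 98.0% of the mean, against 7.90% for the counting error of a library with the mean number of APOA1 reads.

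On the log2(value + 1) scale, on which all differences here are given, the mean APOA1 level of the ATE cats was 2.37 ± 0.67 (SE, n = 3 and 6) above that of the cats with congestive HF, or 5.18-fold, a size that belongs to the choice of the gene. Without cat 37 the difference was 2.93, and without cat 11 it was 2.05. As a log2 fold change of the recovered reads it was 1.66 with edgeR and 1.64 with DESeq2, and it was 2.53 with the library labelled cat 22 entered as ATE, the outcome that the cohort list gives for a cat of that number. Whether that library came from this cat is not known here, and the cats that the study names as sequenced instead had no known cardiac death. Cat 37 is the HF cat that goes against this difference, so leaving it out can only enlarge the difference. The flow cells did not give 1 direction. On flow cell A the ATE cat stood at 422 against 18.8 to 51.8 in 3 HF cats, and on flow cell B at 292 against 44.9 and 52.0. On flow cell C the only ATE cat (38) stood at 252, below the only HF cat (37) at 411. The summed hepatocyte markers were 12.9 in cat 37, 17.6 to 25.5 in the ATE cats and 17.6 in cat 22. Their median in congestive HF was 8.43. The sum was highest in cat 15 (61.3, of which ALB was 54.5), where APOA1 was at 44.9. Whether APOA1 followed these markers was not tested.

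APOE, the other lipid carrier, was spread differently over the cats. Its values were 56.4 in cat 10, 57.8 in cat 23 and 87.5 in cat 38. In congestive HF the lowest value was 23.6 (cat 30), the median 58.3 and the highest 223 (cat 35, 283 reads). Cat 36 had 58.8, and the libraries labelled cats 22 and 29 had 56.7 and 88.7. The ATE cats lay inside the range of the HF cats. The difference of ATE from congestive HF was 0.15 ± 0.57, limma's adjusted p was 0.988 and its unadjusted p 0.795, so no difference beyond the spread between cats was found. Its sign also depended on cats and settings, running from -0.11 without cat 30 to 0.53 without cat 35 and to -0.25 with edgeR or DESeq2 on the recovered reads. Without cat 35, APOE stayed between 23.6 and 90.1 in the other 11 libraries, and its SD fell from 70.2% to 38.6% of the mean.

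**Figure D1:**
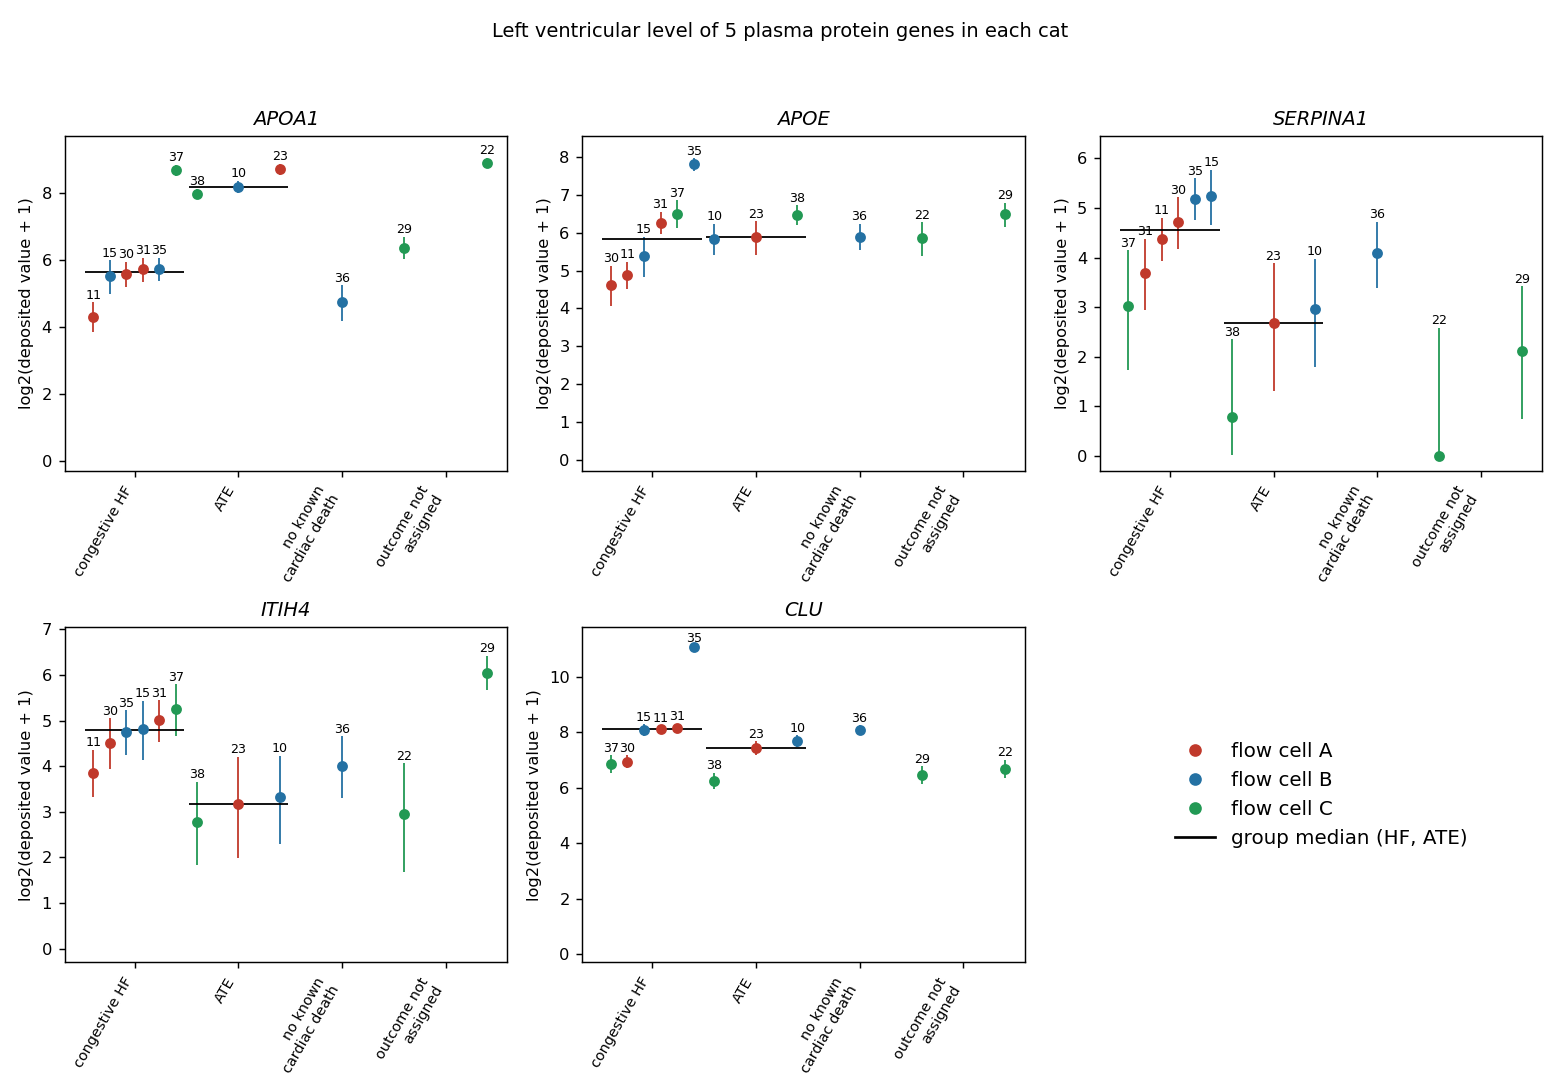
Level of APOA1, APOE, SERPINA1, ITIH4 and CLU in each of 12 libraries as log2(deposited value + 1), by outcome; points carry the cat number and the colour of the flow cell, bars are exact 95% Poisson intervals of the reads and lines are medians of congestive HF and ATE. APOA1 is at 252 or more in cats 10, 22, 23, 37 and 38 and at 82.0 or less in the others, and cat 35 stands above all others in APOE and CLU.

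CLU had the most reads of the 5 genes, 4952 over 12 libraries, and 2737 of them came from cat 35. Its value in that HF cat was 2156, against 75.0 to 284 in the other 11 libraries. The ATE cats had 203 (cat 10), 171 (cat 23) and 75.0 (cat 38, the lowest of all). In congestive HF the lowest value was 114 (cat 37) and the median 273. Cat 36 had 271, and cats 29 and 22 had 86.5 and 101. All 4 libraries of flow cell C lay between 75.0 and 114, below each library of flow cells A and B, whose lowest value was 121. Outcome did not separate the cats, since 2 of 6 HF values lay below the highest ATE value. ATE minus congestive HF was -1.09 ± 0.72 (limma's unadjusted p = 0.156, adjusted p = 0.960). Without cat 35 the difference was -0.51, and with edgeR on the recovered reads of all 9 cats it was -1.84 (edgeR's adjusted p = 0.933).

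SERPINA1, the elastase inhibitor, was low in ATE and also low in absolute reads. It had 6 reads in cat 10, 4 in cat 23 and 1 in cat 38, for values of 6.764, 5.37 and 0.735. Among the HF cats the lowest value was 7.15 (cat 37, 5 reads), the median 22.5 and the highest 36.8 (cat 15, 27 reads). No ATE value reached the lowest HF value, but the gap between 6.764 and 7.15 was smaller than the counting error, since the exact 95% Poisson intervals were 2.48 to 14.7 for cat 10 and 2.323 to 16.7 for cat 37. Cat 36 had 16.0 (18 reads) and cat 29 had 3.33 (3 reads). Cat 22 had 0 reads of 880915, which allows a value of up to 4.05 at 3 reads, or 4.98 as the upper bound of the exact 95% Poisson interval, both for counting error only. ATE minus congestive HF was -2.23 ± 0.60, or 4.70-fold lower, again the difference for which the gene was picked. Without cat 38, with its single read, the difference was -1.56, and with the library labelled cat 22 entered as ATE it was -2.77. The outcome of that library is not known. Within flow cells the differences were -1.59 on flow cell A, -2.26 on B and -2.23 on C, where 1 read stood against 5. Because no ATE value reached any HF value, the sign on each flow cell was fixed and is no repeat of the result.

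ITIH4 was likewise lower in the ATE cats than in any HF cat. Its values were 9.02 (cat 10, 8 reads), 8.06 (cat 23, 6 reads) and 5.883 (cat 38, 8 reads). In congestive HF they ran from 13.51 (cat 11, 28 reads) over a median of 26.6 to 37.2 (cat 37, 26 reads). Within the groups the SD was 30.9% of the mean in HF, against 18.7% from counting alone, and 21.0% in ATE, against 36.9% from counting alone. Cat 36 had 15.1, inside the HF range. Cat 29 had the highest value of all, 65.4 (59 reads), and cat 22 one of the lowest, 6.75 (5 reads). ATE minus congestive HF was -1.61 ± 0.36, or 3.04-fold lower, and between -1.77 and -1.45 when any 1 library was left out. Within flow cells the difference was -1.28 on A, -1.46 on B and -2.47 on C, with signs again fixed by the separation of the groups. With SERPINA1, ITIH4 was 1 of the 2 genes of the 5 whose ATE values all lay below all HF values, a pattern of 103 of the 8715 genes (1.18%); both were picked for this contrast, so nothing is read from that count.

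**Figure D2:**
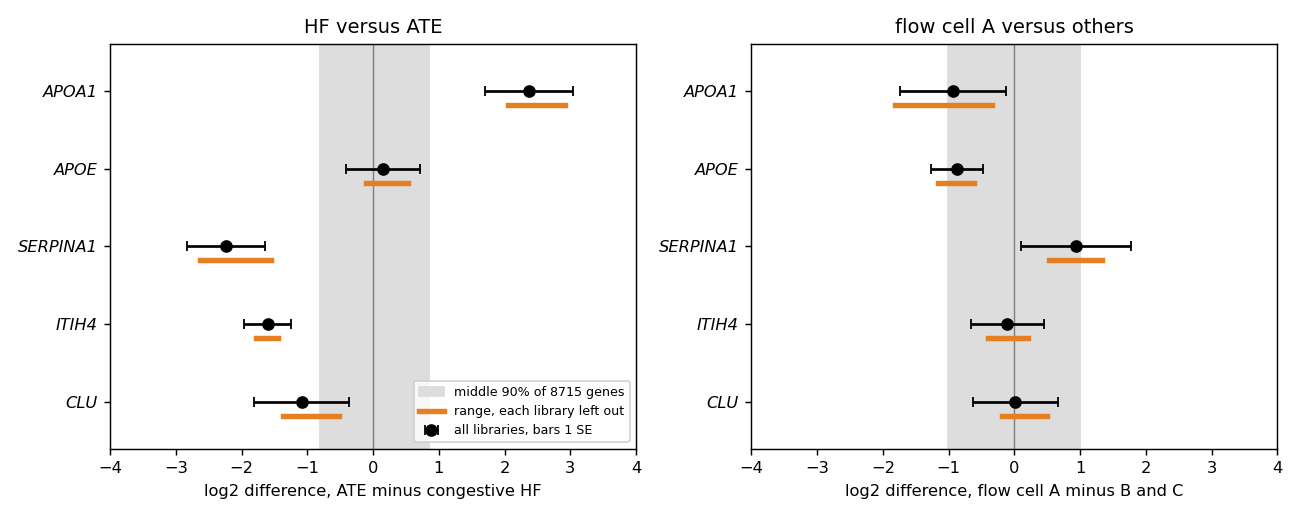
Difference of each gene on the log2(value + 1) scale, ATE minus congestive HF (left) and flow cell A minus flow cells B and C (right); points are the differences, black bars 1 SE, orange bars the range when each library is left out in turn, and the grey band the middle 90% of 8715 genes. APOA1 (2.37), SERPINA1 (-2.23), ITIH4 (-1.61) and CLU (-1.09) lie outside the band of -0.81 to 0.85 on the left, and none of the 5 does on the right. APOA1, SERPINA1 and ITIH4 were chosen by the difference on the left. Their place outside that band follows from the choice, and the panels cannot be compared for them.

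The cats ranked differently by each gene. Cat 37 had the APOA1 level of an ATE cat (411) and the lowest SERPINA1 of the HF cats (7.15), but the highest ITIH4 of the HF cats (37.2). Cat 22 had the highest APOA1, no SERPINA1 read and an ITIH4 value of 6.75, inside the range of the ATE cats. Cat 29 had SERPINA1 at 3.33, inside the ATE range, with ITIH4 at 65.4, above every other library. Cat 36, without known cardiac death, lay within the HF range in all 5 genes. Across the 12 libraries, Pearson's r of the log2 levels of SERPINA1 and CLU was 0.67 and Spearman's rho 0.73, and once the flow cell means had been subtracted r was 0.33. For APOE and CLU r was 0.43 and rho -0.08, and r was 0.78 once the flow cell means had been subtracted, with cat 35 highest in both genes. These values are descriptions over libraries that share flow cells and size factors, and none is given between APOA1, SERPINA1 and ITIH4, whose joint pattern the choice of these genes in part fixes.

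**Figure D3:**
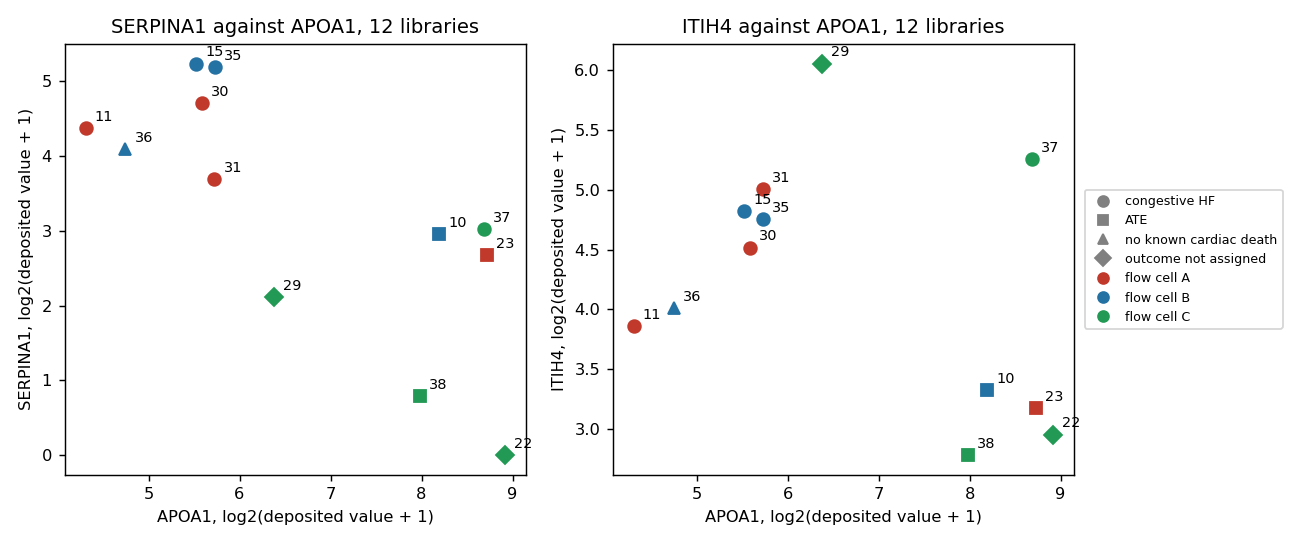
SERPINA1 (left) and ITIH4 (right) against APOA1 in 12 libraries, all as log2(deposited value + 1); symbols give the outcome, colours the flow cell and numbers the cat. Cat 37 lies beside the ATE cats for SERPINA1 (7.15, against 0.735 to 6.764) and apart from them for ITIH4 (37.2, against 5.883 to 9.02).

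The genes whose log2 level followed each gene most closely over the 12 libraries, were taken as those with the 3 highest Pearson's r of all tested genes. APOA1 was nearest to TSEN15 (r = 0.92), a subunit of the tRNA splicing endonuclease, RGS4 (0.92), a regulator of G protein signalling, and ATPAF2 (0.90), an assembly factor of the mitochondrial ATP synthase, where the values of APOA1 fell into 2 separate clusters and r over all libraries says little of the order within them. For SERPINA1 they were JPH1 (0.89), MTURN (0.87) and PKP2 (0.86), of which PKP2 encodes a desmosome protein of cardiomyocytes and JPH1 a junctophilin of striated muscle. ITIH4 was nearest to CSNK2A1 (0.85), CGRRF1 (0.84) and RPS13 (0.80). APOE was nearest to TFEB (0.88), a transcription factor of lysosomal genes, TATDN1 (0.84) and PPP1R26 (0.82). CLU was nearest to ADM5 (0.96), LOC111557947 (0.91) and SELENOM (0.88), a selenoprotein of the endoplasmic reticulum. Each is the top of 8715 genes over 12 libraries and is given as a description.

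Across all genes, the comparison of ATE with congestive HF called none. With limma and Benjamini-Hochberg adjustment 0 of 8715 genes (0%) had an adjusted p under 0.05, with 384 at an unadjusted p under 0.05. edgeR's quasi-likelihood test on the recovered reads also called 0 (398 unadjusted) and DESeq2 called 1, KERA (427 unadjusted). Neither APOE nor CLU was called by limma or edgeR, APOE was not called by DESeq2, and DESeq2 gave no adjusted p for CLU.

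The families around the 5 genes were sparse in the ventricle, and none of their members was called between the outcomes. Of 19 apolipoproteins listed, 17 were in the table and 6 were tested, with APOA5, APOF, APOH and APOL6 at 0 reads in all libraries. The median difference of the 6, which include 3 of the genes described here, was -0.10, against 0.00 for all tested genes, and 3 were positive. Of the serpins and alpha macroglobulins, 11 of 21 were tested, SERPINA1 included, with a median of -0.07 and 3 positive. SERPINF1 (pigment epithelium-derived factor) had a difference of 1.11 ± 0.40 (limma's adjusted p = 0.960). The serpins with most reads lay near 0, SERPINE2 at -0.09 ± 0.28, SERPINH1 (a collagen chaperone) at 0.22 ± 0.34, SERPINB6 at -0.07 ± 0.33 and SERPING1 at -0.17 ± 0.49. Of the inter-alpha-trypsin inhibitor list, 12 genes with the hyaluronan-linked TNFAIP6 and PTX3, 3 were tested (ITIH4, ITIH5 and PTX3), with ITIH5 at 0.08 ± 0.55. ITIH1 and AMBP, which encode another heavy chain and the light chain bikunin, had no read.

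Acute-phase genes gave little signal that could be set beside SERPINA1 and ITIH4. CRP, SAA1 and HPX had 0 reads in all 12 libraries, and 7 of the 37 acute-phase and liver plasma protein genes were tested, with a median difference of -0.21. VTN (vitronectin) had 1.14 ± 0.50 (limma's adjusted p = 0.960) and was the single gene of the 7 with an unadjusted p under 0.05. The members of that list with most reads, beside FN1 (-0.21 ± 0.87), were the complement proteases C1S (0.47 ± 0.46) and CFI (-0.28 ± 0.66) and the lipopolysaccharide receptor CD14 (-0.98 ± 0.70). In the interleukin 6 list, 17 of 30 genes were tested, 6 were positive and the median was -0.20. OSMR, the oncostatin M receptor, had -0.87 ± 0.34 and SOCS3, a feedback inhibitor, -1.30 ± 0.70, both with limma's adjusted p at 0.960. IL6ST, the shared receptor chain gp130, had -0.21 ± 0.24 and the NF-kappaB inhibitor NFKBIA 0.44 ± 0.28. The liver factors HNF4A, FOXA1 and FOXA2 had no read.

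Receptors and partners of the lipid carriers were better covered. Of 27 lipoprotein receptors, transporters and lipases, 17 were tested, 11 were positive and the median difference was 0.12. CD36, a fatty acid and lipoprotein receptor and the most abundant gene of the list by reads, had 0.07 ± 0.27, LPL (lipoprotein lipase) 0.57 ± 0.28 and NPC2, which moves cholesterol out of lysosomes, 0.50 ± 0.32. SCARB1, the receptor for high density lipoprotein, had -1.42 ± 0.47 and NR1H3, the oxysterol receptor LXR alpha, -1.43 ± 0.50 (limma's adjusted p = 0.960 for both). LRP1, which binds APOE, had -0.25 ± 0.35 (limma's adjusted p = 0.982). Of 17 partners of CLU and APOE, these 2 genes not counted, 14 were tested, 6 were positive and the median was -0.06. HSP90B1, a chaperone of the endoplasmic reticulum, had 0.60 ± 0.27 (limma's adjusted p = 0.960), and CANX and PDIA3, which fold glycoproteins there, had -0.12 ± 0.31 and -0.32 ± 0.27. No gene in these lists passed the adjusted threshold between the outcomes.

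Markers of neutrophils and macrophages had negative differences, the direction of SERPINA1 and ITIH4, but did not pass the test. The 3 tested neutrophil markers were S100A8 (-1.95 ± 0.87), S100A9 (-2.39 ± 0.93) and S100A12 (-1.54 ± 0.91), and the sum of the 7 neutrophil markers was 18.4 to 118 in ATE and 42.9 to 1576 in congestive HF. Of 8 tested macrophage markers 7 were negative, with a median of -0.66, and the sum of the 10 markers was 233 to 337 in ATE and 157 to 1483 in congestive HF. None of these markers was called by limma, and the neutrophil gene MPO was at 0 in every library. Fibroblast markers leaned the other way, with 5 of 6 positive and a median of 0.60. The part of these cells in the values of SERPINA1, ITIH4, APOE or CLU was not tested.

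Cat 35 stood apart by more than CLU and APOE. Its C1QB value was 426, against 24.3 to 168 in the other libraries, and that of CD163, the macrophage receptor for haptoglobin, was 388, against 9.45 to 122. S100A9, a calcium-binding protein of neutrophils, was at 637 against 3.68 to 155. The acute-phase genes HP (haptoglobin, 100 reads) and HAMP (hepcidin, 58 reads) were also highest there. SERPINA1 in this cat (35.4) and ITIH4 (26.0) lay within the values of the other HF cats, and APOA1 (52.0) did as well. Cat 11 had the highest PTX3 (104, followed by 57.4 in cat 31) and TNFAIP6 (72.9), but the lowest APOA1 of all libraries, the lowest ITIH4 of the HF cats and CLU at 276.

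**Figure D4:**
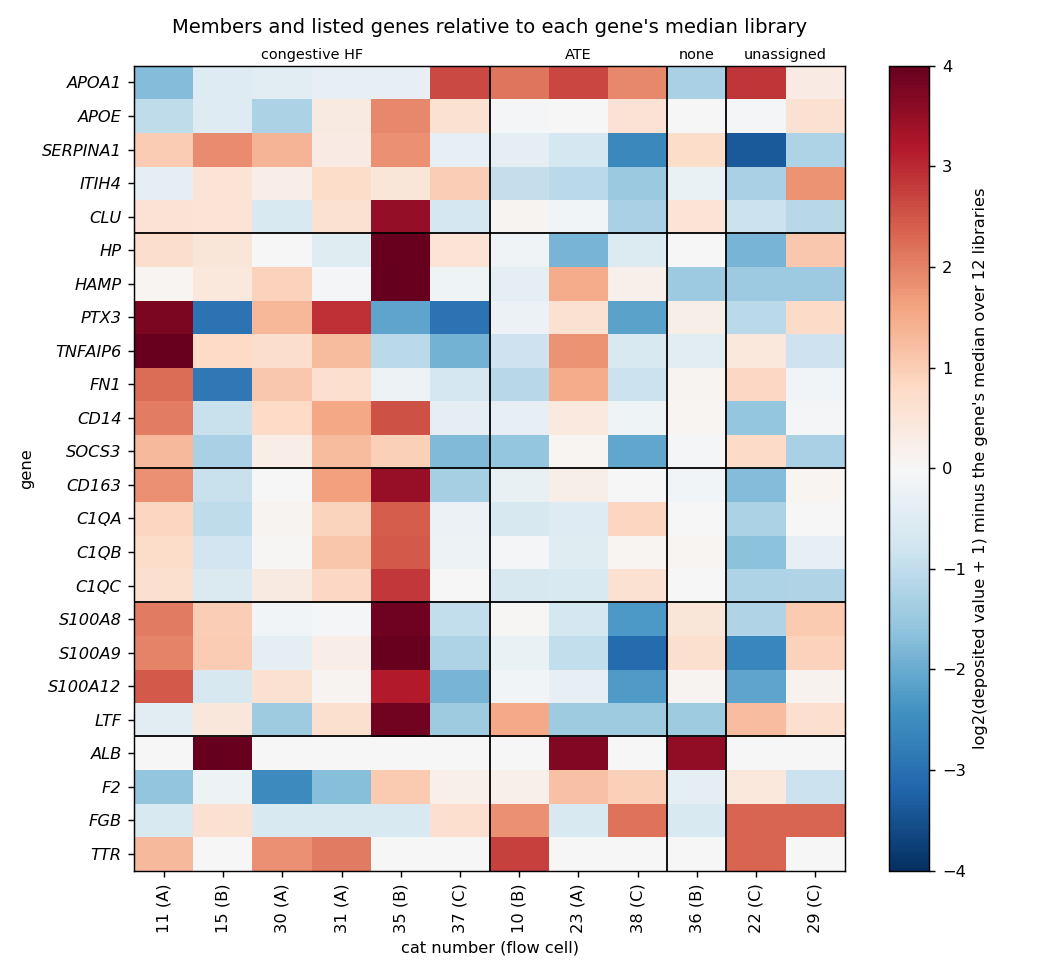
Levels of the 5 genes and of listed acute-phase, macrophage, neutrophil and liver genes in 12 libraries, as log2(deposited value + 1) minus the gene's median over the libraries; columns are cats with their flow cell, ordered by outcome. Cat 35 is high in CLU, APOE, HP, HAMP and in the macrophage and neutrophil genes, while PTX3 and TNFAIP6 are highest in cat 11, and ALB has reads only in cats 15, 23 and 36.

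The libraries of flow cell A differed from those of flow cells B and C together in many genes but not detectably in these 5. Here limma called 446 of 8715 genes (5.12%), 141 higher and 305 lower on flow cell A, and 0 of the 5 (edgeR 435, with 190 higher and 245 lower). The difference of flow cell A (4 libraries) from B and C (8 libraries) was -0.87 ± 0.39 for APOE, with limma's unadjusted p at 0.0387 and adjusted p at 0.203. It was -0.93 ± 0.81 for APOA1 and 0.94 ± 0.84 for SERPINA1, with limma's adjusted p at 0.536 and 0.546. ITIH4 (-0.10 ± 0.55) and CLU (0.01 ± 0.65) were centred near 0, with limma's adjusted p at 0.931 and 0.994. Flow cell C was not tested on its own. Its mean log2 level was 1.48 for SERPINA1 (A 3.87, B 4.37), 7.99 for APOA1 (A 6.09, B 6.05) and 6.56 for CLU (A 7.66, B 8.73). For APOE it was 6.33 (A 5.41, B 6.23) and for ITIH4 4.26 (A 4.14, B 4.23). Each flow cell carried different cats, with different outcomes, so a difference of flow cell A cannot be told apart from a difference of the 4 cats on it. The count over all genes rested on single libraries, falling to 51 without cat 11, 129 without cat 31 and 295 without cat 15.

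Several genes of the lists around the 5 were called between the flow cells. LRPAP1, a chaperone of lipoprotein receptors, was lower on flow cell A, at -1.85 ± 0.27 (limma's adjusted p = 0.00233), and was called with any 1 library left out. PTX3 (a pentraxin) was higher by 3.46 ± 0.76 and FN1 (fibronectin) by 1.98 ± 0.48, with limma's adjusted p at 0.0165 and 0.0272. Neither was called without cat 11 (2.93 and 1.69, limma's adjusted p = 0.114 and 0.146) or without cat 31 (3.21 and 2.21, limma's adjusted p = 0.0710 and 0.0507). SERPING1, the C1 inhibitor, at -1.15, and APOO, a mitochondrial apolipoprotein, at -0.87, were lower (limma's adjusted p = 0.0466 and 0.0350). APOO and SERPING1 lost their call without any of 8 of the 12 libraries, with differences from -0.93 to -0.75 and from -1.41 to -0.98 over all 12. In the same comparison 6 of 10 cardiomyocyte markers were called lower and 2 of the 3 tested smooth muscle markers higher. Of these cardiomyocyte calls 0 remained without cat 11 and 2 without cat 31, while both smooth muscle calls remained with any 1 library left out.

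Neither fibrosis, fat nor age was shown to be related to these genes. The traits were the share of myocardial fibrosis (8 cats), the share of adipocytes (10 cats) and age (9 cats), and 12 relations of 4 genes with 3 traits were computed; APOA1 fell into 2 separate clusters of values, so no correlation with a trait is given for it. The strongest relation was between CLU and age, with Spearman's rho = -0.53 (exact permutation p = 0.148, adjusted over all genes 0.929) and Pearson's r = -0.30 (exact permutation p = 0.421). For APOE and age rho was -0.42 (exact permutation p = 0.270, adjusted 0.963) and r was -0.45 (exact permutation p = 0.220). Without the 2 cats farthest from the median age, r was -0.40 or -0.01 for CLU and -0.09 or 0.18 for APOE, as 2 cats are equally far. Within flow cells r was -0.63 (exact permutation p = 0.174) for CLU and -0.49 (exact permutation p = 0.351) for APOE. SERPINA1 and ITIH4 had rho of 0.22 and 0.08 with age (exact permutation p = 0.581 and 0.843), r of 0.30 and 0.18 (exact permutation p = 0.448 and 0.626) and r within flow cells of 0.32 and 0.18. These 2 genes were picked on a contrast between cats that also enter the trait relations. Their p-values for age, fibrosis and adipocytes are therefore not independent of that choice.

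For myocardial fibrosis rho ran from -0.33 for APOE (exact permutation p = 0.428) to -0.05 for CLU (exact permutation p = 0.935), with r between -0.31 for APOE and -0.05 for SERPINA1. For adipocytes rho ran from -0.24 for APOE (permutation p = 0.514) to 0.08 for CLU (permutation p = 0.838), with r between -0.24 for APOE and 0.08 for SERPINA1. Adjusted over all genes, each of these 8 p-values was 1. Within flow cells r lay between -0.39 and -0.23 for fibrosis (7 cats) and between -0.55 and -0.01 for adipocytes, and without the 2 cats farthest from the median between -0.57 and -0.29 and between -0.53 and -0.02. No gene of the 8715 had an adjusted p under 0.05 for fibrosis, adipocytes or age by rho (0% for each, with 247, 267 and 415 at an unadjusted p under 0.05) or by limma's slope (230, 333 and 401).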

How the data were processed

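RNA from left ventricular tissue of 12 cats was prepared with the SQK-RNA002 direct RNA kit. Guppy base calls that passed a quality threshold were aligned by the authors to the felCat9 genome (Minimap2), and FeatureCounts assigned them to genes. The deposited signal values are these counts divided by a size factor of the library: divided by what a single read is worth, 100% of the values in each library came out whole (tolerance 1e-06), so reads could be recovered. How the size factor was computed was not checked.

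Outcome, age, breed, fibrosis and adipocyte shares are not in the labels and were joined from the study's cohort list by the cat number in the label. Cats 22 and 29 are not among those the study names as sequenced, so the libraries with these labels entered only the flow cell comparison and descriptions, and 1 named alternative. The 5 genes and all gene lists were chosen with earlier results of these data known.

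A gene was kept if 3 or more of the 10 libraries with an assigned outcome held 10 or more of its reads (8715 of 30785). limma 3.58.1 (moderated test with intensity trend, two-sided, R 4.3.3) was fitted on log2(value + 1) across all of them with Benjamini-Hochberg adjustment over all 8715, using only the 9 libraries of congestive HF and ATE, or all 12 for flow cells. A difference on this scale understates the change of low genes. Spearman's rho was tested two-sided by exact permutation for 8 or 9 cats and with 100000 permutations for 10 (scipy 1.17.1). edgeR 4.0.16 and DESeq2 1.42.0 were run on the recovered reads as alternatives, beside TMM scaling, pseudocounts of 0.5 and 2, no filter, a flow cell term, cat 22 entered as ATE, unscaled reads, total fibrosis and leaving out each library. The scripts were tested on simulated data. Named genes are the 5, genes of a list that were called (at most 4 per list, comparison and direction), the 4 of a list with most reads and the 3 most correlated with each of the 5; any other gene named was chosen after its values were seen.

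Depth was 789257 to 2263110 reads on genes per library. Poisson intervals cover counting error only, and p-values measure the spread between cats. No reference of the felCat9 build was used here, so no sequence, coordinate or level per length is given. Some genes of the lists are not reported here.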

Additional observations from a re-analysis of the deposited data

Results flagged for a closer look

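In 27 genes of the report and of the lists, the 6 libraries of congestive HF were searched for 1 library standing apart. Its gap to the nearest other, divided by the group's range, had to be above Dixon's critical value of 0.625. The ratio was taken on deposited values and not on their log2. Chance gives about 1 in 20 groups only for normally distributed values, which was not tested, so the rate for these values is not known. APOA1 in cat 37 had a ratio of 0.915 (value 411, nearest 52.0). CLU in cat 35 had 0.917 (2156, nearest 284) and APOE in the same cat 0.666 (223, nearest 90.1), beside C1S at 0.751 (78.0, nearest 28.6). TNFAIP6 in cat 11 had 0.891 (72.9, nearest 7.98) and NPC2 in that cat, as the lowest value, 0.650 (93.6, nearest 189). CANX in cat 15, the lowest, had 0.656 (271, nearest 520.2).

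The difference of APOA1 between ATE and congestive HF had opposite signs on different flow cells, 3.52 on A and 2.57 on B, but -0.70 on C, where each outcome had 1 cat. That the flow cells differ was not tested.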

How the results depend on the processing

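Between the outcomes, 0 genes were called in each setting except DESeq2, which called 1 (KERA), and leaving out single cats, which gave 0 to 1. The 1 was APOA1 without cat 37, the HF cat with its highest value. APOA1 was chosen by this difference, and cat 37 is the HF cat that goes against it. That count is therefore no test of the gene and no evidence for it. Between flow cells, 446 genes became 864 with DESeq2 and 51 to 501 when 1 library was left out. The differences of APOA1, SERPINA1, ITIH4 and CLU between the outcomes kept their sign in all settings run. That of APOE turned to -0.25 with edgeR, -0.25 with DESeq2 and -0.03 with a flow cell term, and ran from -0.11 to 0.53 over left-out cats. On flow cell A, ITIH4 ran from -0.39 to 0.22 over left-out cats and CLU from -0.19 to 0.50, with -0.95 for CLU by edgeR and -0.35 in the 10 libraries of known outcome. No cause of these turns was tested.

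Some correlations turned sign. Over left-out cats rho ran from -0.54 to 0.0714 for SERPINA1 and -0.29 to 0.43 for CLU with fibrosis, from -0.10 to 0.33 for SERPINA1 and -0.0476 to 0.36 for ITIH4 with age, and with adipocytes from -0.50 to 0.05 for APOE, -0.32 to 0.17 for SERPINA1, -0.12 to 0.30 for ITIH4 and -0.0833 to 0.48 for CLU. CLU had 0.0238 with total fibrosis. Without cats 30 and 15, r with age was 0.18 for APOE, -0.33 for SERPINA1 and -0.15 for ITIH4. With unscaled reads ITIH4 had -0.20 with age and -0.27 with adipocytes, and CLU -0.00606 with adipocytes. For adipocytes, r was 0.0764 for SERPINA1 and -0.15 for CLU, within flow cells -0.00957 for ITIH4 and -0.55 for CLU, and without cats 36 and 31 -0.15 and -0.44. With unscaled reads APOE and age gave rho = -0.82 (exact permutation p = 0.0108), where 924 of 930 genes with an unadjusted p under 0.05 were negative. Each library came from a different cat, so no cat could be compared with itself, but each flow cell carried cats of both outcomes. With a flow cell term, which compares the outcomes within flow cells, the differences were 2.09 for APOA1, -1.99 for SERPINA1, -1.65 for ITIH4 and -0.94 for CLU. Depth limits SERPINA1 and ITIH4 most, with 1 to 6 and 6 to 8 reads in the ATE cats.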
